A study of Mus musculus with 9 samples.

Results

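The genes described here are the 10 genes H2-K1, H2-D1, B2m, Tap1, Tap2, Tapbp, Psmb8, Psmb9, Psmb10 and Nlrc5, which make, supply and control MHC class I. They were taken by symbol from the 37801 usable entries of a gene-level RNA-seq table, and all 10 were found and passed the filter on low values. MHC class I molecules show peptides from inside the cell to CD8 T cells. The proteasome cuts proteins into peptides, the TAP1/TAP2 transporter carries them into the endoplasmic reticulum, tapasin bridges the transporter to empty class I molecules, and each molecule is a heavy chain (H2-K1 or H2-D1) held by β2-microglobulin. The inducible subunits of the proteasome encoded by Psmb8, Psmb9 and Psmb10 replace Psmb5, Psmb6 and Psmb7 in the immunoproteasome, and NLRC5 is a transcriptional activator of the class I genes. Lymphocytes and other immune cells express this machinery at rest, and interferon gamma raises it in most cells.

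There were 3 groups of mice with 3 libraries each. Tyr-NrasQ61K MHCII-KO mice carried NRAS61K, driven in melanocytes by the tyrosinase promoter, were Cre positive and labelled MHCII-KO, and were of the strain FVB/NJ (Cross). Tyr-NrasQ61K mice carried the same oncogene on the same strain, were Cre negative and had wild-type MHCII. WT mice were wild type for both, of the strain FVB/NJ. The labels give neither ages nor the MHCII gene deleted, and do not say whether each library came from a separate animal, so p-values measure the spread between libraries. The strain label changes together with NrasQ61K, so strain and oncogene cannot be told apart in any comparison with WT, although the protocol calls the controls littermates. This bears most on the class I heavy chains, which differ in sequence between strains. The aligned build, mm10, comes from C57BL/6, and reads of near-identical class I genes may be shared between them, so the values of H2-K1 and H2-D1 are uncertain. The effect of this was not tested.

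The labels name nevus melanocytes as the source, but the study's text gives lymph nodes, and lymphocyte markers were well above melanocyte markers in every library. Summed FPKM (fragments scaled to transcript length and library size) of 8 T cell markers was 148 to 239 in MHCII-KO, 151 to 370.0 in Tyr-NrasQ61K and 199 to 316 in WT libraries. That of 6 melanocyte markers was 6.58 to 11.5 in MHCII-KO, 11.96 to 16.8 in Tyr-NrasQ61K and 3.64 to 5.63 in WT libraries. In bulk tissue, fewer cells of a type and less RNA per cell cannot be told apart. The MHCII-KO label could not be seen in class II transcripts. The labels do not say in which cells Cre acted, and a loss limited to few cells could not be seen in bulk values. H2-Ab1, a class II beta chain, had 271, 108 and 165 FPKM in MHCII-KO libraries, 149, 276 and 207 in Tyr-NrasQ61K libraries and 183, 101 and 170.1 in WT libraries. H2-Aa (362 to 634 FPKM) and H2-Eb1 (360.0 to 444 FPKM) were present in every MHCII-KO library too, and none of these genes was called between the NrasQ61K groups. Replicate 2 of both NrasQ61K groups stood apart. On the first principal component, which held 32.1% of the variance, they scored 78.6 (MHCII-KO) and 101.9 (Tyr-NrasQ61K), while the other 7 libraries lay between -74.1 and 21.8. Tyr-NrasQ61K replicate 3 stood apart on the second component, at -100, while the other libraries lay between -12.9 and 35. Depth could only be estimated, from the commonest ratio of low FPKM to WT replicate 1, and the number of reads is unknown. The estimates for replicate 2 of both NrasQ61K groups were 0.871 and 0.753, but rest on only 19 and 17 genes at that ratio. Those of the others were 1.0 to 1.68. That of Tyr-NrasQ61K replicate 3 rests on 9 genes.

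In these nodes the 10 genes formed 2 tiers of abundance. H2-K1, H2-D1 and B2m were at 343 to 1699.8 FPKM, apart from B2m in replicate 2 of both NrasQ61K groups (136 and 60.2), and the other 7 genes were at 16.5 to 169 FPKM. No member was called at a Benjamini-Hochberg adjusted limma p of at most 0.05 in any of 4 comparisons. The background was 0.398% of the 16587 genes tested for both NrasQ61K groups against WT, 0.145% for MHCII-KO against WT, 0.235% for Tyr-NrasQ61K against WT and 0.0482% for MHCII-KO against Tyr-NrasQ61K. At an unadjusted p under 0.05, 1 of the 10 members passed in the first comparison (B2m), beside 21.7% of all genes. In the other comparisons 0 members passed, beside 15.0%, 15.2% and 1.52% of all genes. The members' shares did not exceed the background. The median log2 difference of the members was -0.33, -0.36, -0.27 and -0.06, against -0.16, -0.22, -0.12 and -0.08 for all genes tested, which had themselves shifted below 0 in the comparisons with WT. The members did not move as a block. For both NrasQ61K groups against WT, 3 (H2-D1, Tap2 and Tapbp) had values above 0 and 7 below.

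**Figure D1:**
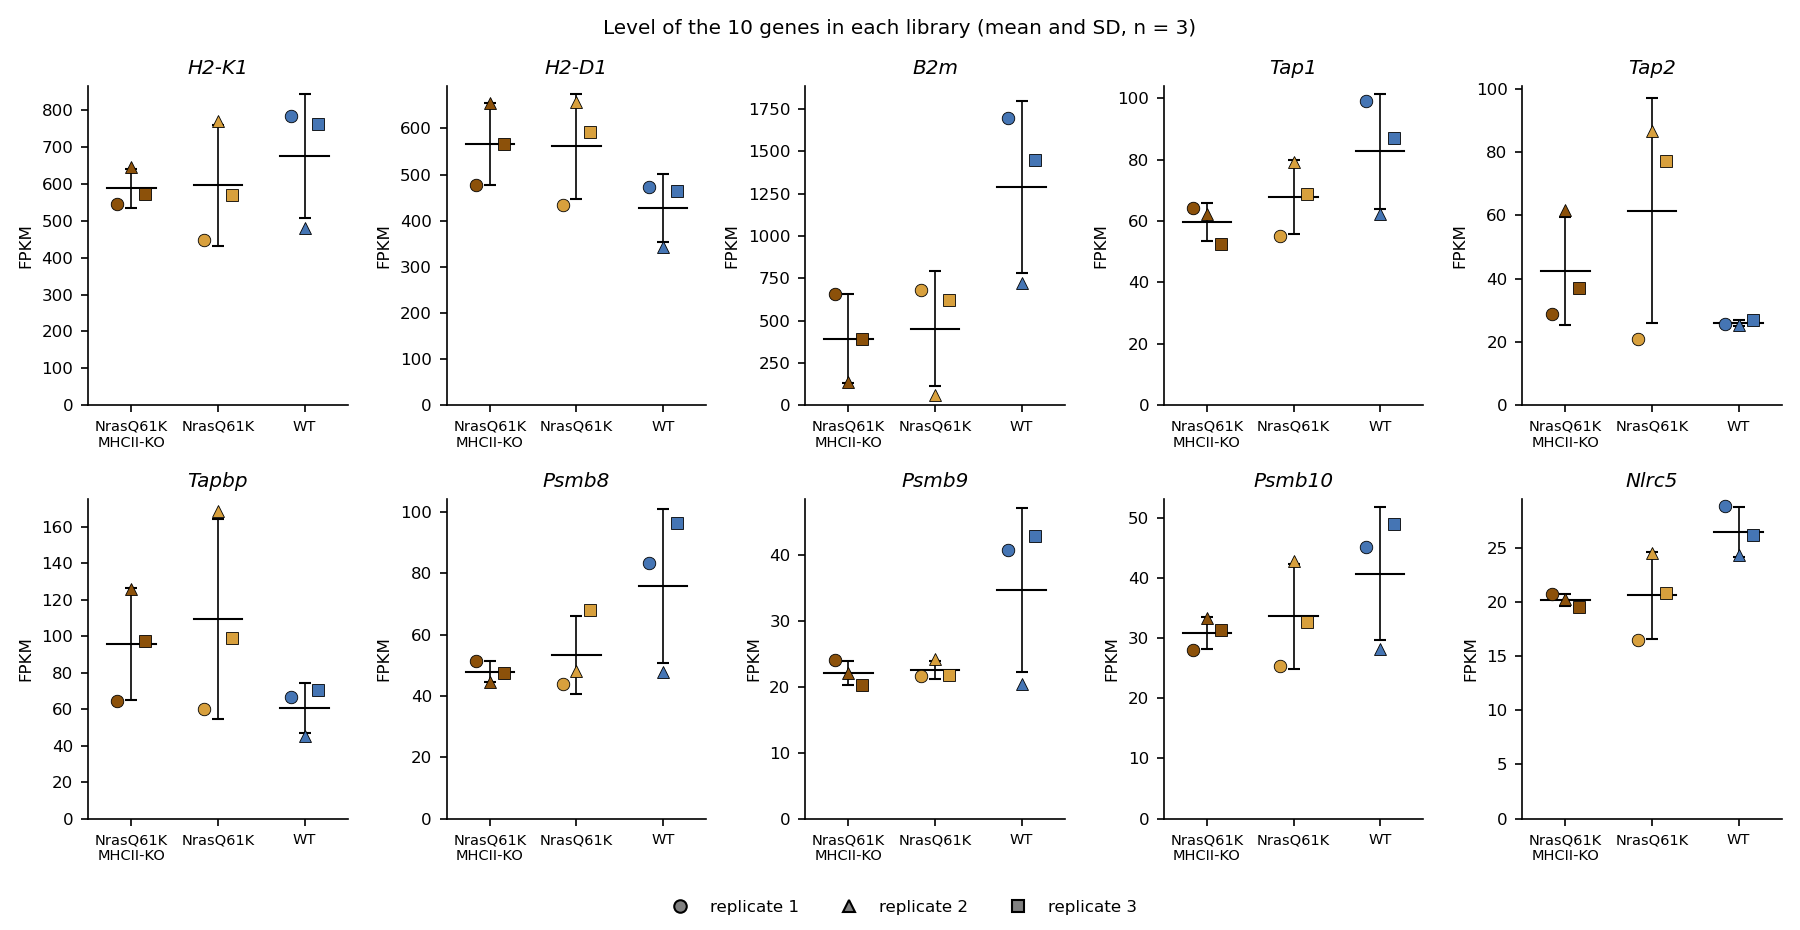
FPKM of each of the 10 genes in the 9 libraries (y axis from 0), by group, with circles, triangles and squares for replicates 1, 2 and 3; the line and bars are the mean and SD of 3 libraries. B2m lay at or below 679.8 FPKM in all 6 NrasQ61K libraries and at or above 722 in WT, and the triangles (replicate 2) of both NrasQ61K groups were lowest for B2m and high for Tap2 and Tapbp.

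B2m encodes β2-microglobulin, the invariant light chain without which class I heavy chains do not reach the cell surface. It lies on chromosome 2 at chr2:122147686-122153083 (mm10, plus strand), away from the heavy chains on chromosome 17. B2m had 656, 136 and 391 FPKM in MHCII-KO libraries, 679.8, 60.2 and 620.0 FPKM in Tyr-NrasQ61K libraries and 1699.8, 722 and 1451 FPKM in WT libraries. All 6 NrasQ61K libraries were below all 3 WT libraries, but the gap between the closest of them was narrow (679.8 against 722), and the lowest values were those of replicate 2 in both NrasQ61K groups. Group means were 394 ± 260.3, 453 ± 342 and 1291 ± 508 FPKM (SD, n = 3 each). For both NrasQ61K groups against WT the log2 difference in FPKM + 1 was -1.96 (SE 0.86, 95% interval -3.92 to -0.01, adjusted p = 0.230 by limma), which did not pass. Over 20 alternatives its adjusted p was 0.0153 to 0.580. It passed under 2 of them, with the libraries weighted by their spread (adjusted p = 0.0153) and with the replicate number as a block, which called 45.5% and 16.1% of all genes.

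B2m was lowest in the libraries that stood apart on the first principal component. Its FPKM in replicate 2 was 0.259 of the mean of replicates 1 and 3 in the MHCII-KO group, 0.0927 in the Tyr-NrasQ61K group and 0.459 in WT. Without replicate 2 of both NrasQ61K groups the log2 difference from WT was -1.08 (adjusted p = 0.313). B2m is also the member with the lowest GC content, 41.2% over its longest transcript of 860 nt, while the other 9 members had 52.5 to 57.1%. In the replicate 2 libraries, protein-coding genes under 42% GC lay lower than in the median of the 7 other libraries, by a median log2 of -0.70 in MHCII-KO and -0.95 in Tyr-NrasQ61K. At 54% GC and above the medians were -0.07 and 0.08. B2m itself lay at -2.32 in MHCII-KO and -3.47 in Tyr-NrasQ61K, below the lower quartiles of that GC class (-0.99 and -1.32). After a GC and transcript length correction, added once the data had been seen, the difference of both NrasQ61K groups from WT was -1.45 (adjusted p = 0.184).

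**Figure D2:**
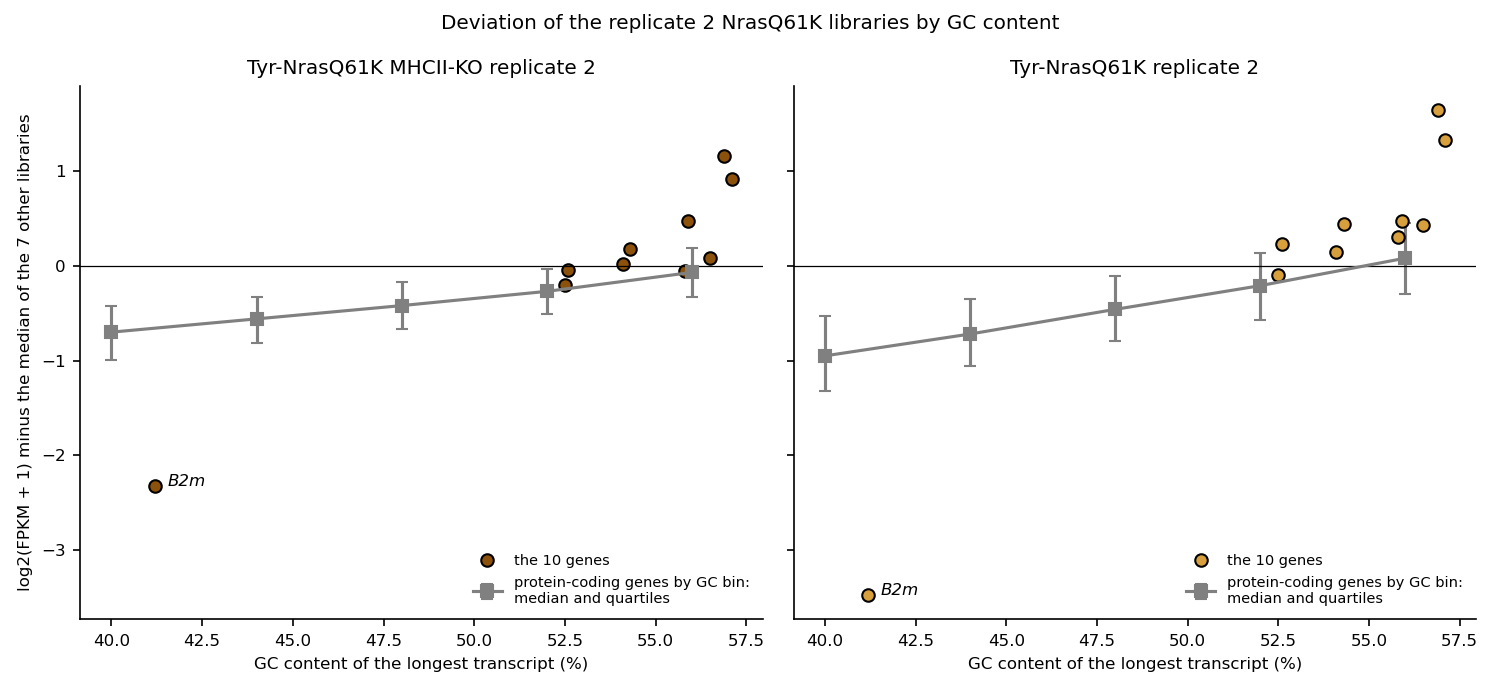
Deviation of replicate 2 of the Tyr-NrasQ61K MHCII-KO group (left) and of the Tyr-NrasQ61K group (right) from the median of the 7 other libraries, on the log2(FPKM + 1) scale, against GC content of the longest transcript in percent; grey squares are medians of protein-coding genes in 5 GC bins with quartiles, circles the 10 genes. B2m, at 41.2% GC, lay at -2.32 and -3.47, and Tap2 and Tapbp, at 56.9 and 57.1%, lay highest.

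H2-K1 and H2-D1 encode the classical class I heavy chains, which bind the peptide. H2-K1 lies at chr17:33996017-34000347 (minus strand) and H2-D1 at chr17:35262730-35267499 (plus strand). H2-K1 had 544, 645 and 573 FPKM in MHCII-KO libraries, 448, 771 and 569 FPKM in Tyr-NrasQ61K libraries and 784, 481 and 761 FPKM in WT libraries. The groups overlapped throughout, with the highest value in WT replicate 1 and the lowest in Tyr-NrasQ61K replicate 1. The log2 difference of both NrasQ61K groups from WT was -0.18 (SE 0.32, 95% interval -0.91 to 0.55, adjusted p = 0.748), and it turned to 0.16 under quantile, 0.07 under median-ratio and 0.0023 under upper-quartile scaling. H2-D1 had 479, 655 and 566 FPKM in MHCII-KO libraries, 435, 657 and 592 FPKM in Tyr-NrasQ61K libraries and 474, 343 and 465 FPKM in WT libraries. The 3 MHCII-KO libraries lay above the 3 WT libraries, while Tyr-NrasQ61K replicate 1 fell among WT. The difference was 0.40 (SE 0.29, 95% interval -0.27 to 1.06, adjusted p = 0.409) for both NrasQ61K groups against WT.

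The promoter stretches of B2m, H2-K1, H2-D1 and Tap1 are shown because they let the regulatory letters of the class I genes be read side by side. Each is the 250 bases before the RefSeq start site, 5′ to 3′ on the gene's strand, on GRCm38.p6, at chr2:122147437-122147686 for B2m, chr17:34000348-34000597 for H2-K1, chr17:35262844-35263093 for H2-D1 and chr17:34187306-34187555 for Tap1. RefSeq start sites and the starts of the GENCODE genes are not the same for every gene. The window of H2-D1 lies inside the GENCODE gene whose coordinates are given above. The windows of Tapbp, Psmb8 and Psmb9, which are counted below, also lie inside their GENCODE genes. Capitals mark matches on either strand to GAAANNGAA (interferon-stimulated response element), TTCNNNGAA (gamma-activated site), GGGNNTTCC (kappa B), ATTGG (Y box) and TGACG (X2 box).
B2m: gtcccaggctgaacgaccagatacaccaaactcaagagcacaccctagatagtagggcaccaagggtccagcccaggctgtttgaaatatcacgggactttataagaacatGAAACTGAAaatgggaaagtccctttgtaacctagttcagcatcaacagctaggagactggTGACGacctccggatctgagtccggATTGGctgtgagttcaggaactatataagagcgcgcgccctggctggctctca
H2-K1: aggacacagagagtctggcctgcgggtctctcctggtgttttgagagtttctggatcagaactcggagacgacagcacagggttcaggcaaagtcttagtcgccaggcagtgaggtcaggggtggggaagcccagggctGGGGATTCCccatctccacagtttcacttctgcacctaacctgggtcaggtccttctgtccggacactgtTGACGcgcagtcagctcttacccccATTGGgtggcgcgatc
H2-D1: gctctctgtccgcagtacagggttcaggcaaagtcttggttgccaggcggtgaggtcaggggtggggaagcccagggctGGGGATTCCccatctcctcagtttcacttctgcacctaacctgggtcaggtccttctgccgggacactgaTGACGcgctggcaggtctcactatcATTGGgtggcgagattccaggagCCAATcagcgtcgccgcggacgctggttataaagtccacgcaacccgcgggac
Tap1: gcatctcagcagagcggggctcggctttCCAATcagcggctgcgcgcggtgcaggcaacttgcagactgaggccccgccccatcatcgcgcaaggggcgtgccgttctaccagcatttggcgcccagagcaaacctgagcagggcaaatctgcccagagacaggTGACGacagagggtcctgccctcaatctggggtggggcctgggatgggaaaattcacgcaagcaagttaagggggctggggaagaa

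A promoter was matched for 8 of the 10 members, and none for Tap2 and Nlrc5. TGACG was found in 5 of the 8 (B2m, H2-K1, H2-D1, Tap1 and Psmb9), against 17.9% of 27025 promoters of the same length. ATTGG was found in 6 of the 8, the same 5 and Tapbp, against 34.5%. The kappa B letters were in H2-K1 and H2-D1, each as GGGGATTCC, against 4.88% of promoters. GAAANNGAA was in B2m (7.16% of promoters) and TTCNNNGAA in Psmb8 (7.18%). Psmb10 held none of the 5 motifs in its window. The stretches of H2-K1 and H2-D1 were near copies of each other: shifted by 60 bases, they were identical at 166 of 190 positions (87.4%). Tap1 and Psmb9 are transcribed away from each other, and their windows share 225 bases, so their matches on either strand are the same letters. No match overlapped another, and a match is a description of these letters and does not show a bound site. Each pattern is fixed, so the lack of a match does not show that a promoter lacks such a site.

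The balance of the 2 heavy chains overlapped between the NrasQ61K groups and was lower there than in the WT libraries. The ratio of H2-K1 to H2-D1 was 1.14, 0.984 and 1.01 in MHCII-KO libraries, 1.03, 1.17 and 0.961 in Tyr-NrasQ61K libraries and 1.66, 1.4 and 1.64 in WT libraries. The 6 NrasQ61K libraries lay at or below 1.17 and the WT libraries at or above 1.4, and replicate 2 of the NrasQ61K groups lay within the range of the other NrasQ61K libraries or just above it. The ratio is free of library scaling, but the strain label differs between the same libraries, and strain and oncogene cannot be told apart. This ratio was picked after its values were seen and was given no test. Among all 45 ratios of 2 members, 16 (35.6%) did not overlap between the NrasQ61K and the WT libraries. The background was 22.3% over all pairs of the 5283 tested genes with a mean FPKM of at least 10 and no value of 0, and the 45 ratios share their genes. H2-D1 was in 7 of the 16 ratios, Tapbp in 7, B2m, Psmb9 and Nlrc5 in 3 each, and the other members in 1 or 2. Tapbp/Psmb9, an example that the library scaling cannot move, was 2.69, 5.7 and 4.81 in MHCII-KO libraries and 2.79, 7.0 and 4.55 in Tyr-NrasQ61K libraries. In WT libraries it was 1.63, 2.21 and 1.65. It was highest in replicate 2 of both NrasQ61K groups, and reads of Psmb9 may be split with a further entry.

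Light chain was also low relative to heavy chain. The ratio of B2m to the sum of H2-K1 and H2-D1 was 0.642, 0.104 and 0.343 in MHCII-KO libraries, 0.77, 0.0422 and 0.534 in Tyr-NrasQ61K libraries and 1.35, 0.876 and 1.18 in WT libraries. It was below every WT value in all 6 NrasQ61K libraries and lowest in replicate 2 of both NrasQ61K groups, as B2m itself was. As background, 22.3% of ratios of 2 genes with a mean FPKM of at least 10 did not overlap. B2m has 41.2% GC, H2-K1 54.3% and H2-D1 55.9%, and the part of GC content in this ratio was not tested. This ratio was also chosen after its values were seen.

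Tap1 and Tap2 encode the subunits of the peptide transporter and lie on chromosome 17 with Psmb8 between them. Tap1 is at chr17:34187553-34197225 and Tap2 at chr17:34203527-34216321, both on the plus strand. Tap1 had 64.4, 62.2 and 52.6 FPKM in MHCII-KO libraries, 55.2, 79.4 and 68.9 FPKM in Tyr-NrasQ61K libraries and 99.0, 62.2 and 87.1 FPKM in WT libraries. WT replicates 1 and 3 were above all others and WT replicate 2 was among the NrasQ61K libraries. Tap2 had 28.9, 61.6 and 37.0 FPKM in MHCII-KO libraries, 20.8, 86.5 and 77.1 FPKM in Tyr-NrasQ61K libraries and 25.6, 25.3 and 27.0 FPKM in WT libraries. The WT libraries were nearly equal (SD 0.930 FPKM), 5 of the 6 NrasQ61K libraries were above them, and Tyr-NrasQ61K replicate 1 was below them. So the partners of 1 transporter had differences of opposite sign, -0.36 (SE 0.24, adjusted p = 0.366) for Tap1 and 0.80 (SE 0.46, adjusted p = 0.311) for Tap2 for both NrasQ61K groups against WT, neither of which passed. Without replicate 2 of both NrasQ61K groups the difference of Tap2 was 0.47 (adjusted p = 0.591). That fit keeps Tyr-NrasQ61K replicate 3, at 77.1 FPKM, which stood apart on the second principal component.

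Tapbp encodes tapasin, which holds class I next to the transporter while peptides are exchanged, and lies at chr17:33915899-33929292 (plus strand). It had 64.4, 125.7 and 97.2 FPKM in MHCII-KO libraries, 60.3, 169 and 99.1 FPKM in Tyr-NrasQ61K libraries and 66.3, 45.1 and 70.6 FPKM in WT libraries. Replicates 2 and 3 of both NrasQ61K groups were above every WT library and replicate 1 of both was among them. The difference of both NrasQ61K groups from WT was 0.68 (SE 0.37, 95% interval -0.17 to 1.54, adjusted p = 0.295), and 0.39 (adjusted p = 0.538) without replicate 2 of both NrasQ61K groups. Tap2 and Tapbp had the highest GC content of the members, 56.9 and 57.1%, and the largest excess in replicate 2 over the mean of replicates 1 and 3, 1.87-fold and 1.56-fold in MHCII-KO, 1.77-fold and 2.12-fold in Tyr-NrasQ61K. In WT, replicate 2 was at 0.961 and 0.659 of that mean. The part of GC content in these differences was not tested beyond the correction, under which they were 0.77 (Tap2, adjusted p = 0.251) and 0.68 (Tapbp, adjusted p = 0.194).

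Psmb8, Psmb9 and Psmb10 encode the catalytic subunits of the immunoproteasome. Psmb8 (chr17:34197721-34201454, plus strand) and Psmb9 (chr17:34181987-34187764, minus strand) flank Tap1, and Psmb10 lies at chr8:105935735-105938444 (minus strand). Psmb8 had 51.5, 44.6 and 47.6 FPKM in MHCII-KO libraries, 44.04, 48.1 and 67.9 FPKM in Tyr-NrasQ61K libraries and 83.5, 47.8 and 96.5 FPKM in WT libraries. Psmb9 had 23.95, 22.03 and 20.2 FPKM in MHCII-KO libraries, 21.6, 24.1 and 21.8 FPKM in Tyr-NrasQ61K libraries and 40.7, 20.4 and 42.9 FPKM in WT libraries. Psmb10 had 28.1, 33.3 and 31.4 FPKM in MHCII-KO libraries, 25.4, 42.8 and 32.8 FPKM in Tyr-NrasQ61K libraries and 45.1, 28.2 and 48.9 FPKM in WT libraries. All 3 genes had the same pattern in WT, with replicates 1 and 3 above every NrasQ61K library and replicate 2 inside the range of the NrasQ61K libraries. That library was also low for H2-K1, Tap1 and Tapbp, and its ratio to the mean of replicates 1 and 3 was 0.459 to 0.961 over the 10 members. The log2 differences of both NrasQ61K groups from WT were -0.53 (SE 0.28, adjusted p = 0.279) for Psmb8, -0.55 (SE 0.25, adjusted p = 0.247) for Psmb9 and -0.31 (SE 0.25, adjusted p = 0.459) for Psmb10. A further entry under the symbol Psmb9 had 15.4 to 16.6 FPKM in MHCII-KO libraries, 9.63 to 37.0 FPKM in Tyr-NrasQ61K libraries and 17.003 to 32.5 FPKM in WT libraries. In that entry WT replicate 1 had 17.003 FPKM, below Tyr-NrasQ61K replicates 2 and 3 (18.2 and 37.0). That entry did not share the pattern above. Reads may be split between the entries, and the entry with the higher mean was used, so the values of Psmb9 are uncertain.

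Each inducible subunit was also set against the constitutive subunit it replaces, as a log2 ratio of FPKM within a library. Psmb8/Psmb5 was 2.6, 2.11 and 1.97 in MHCII-KO libraries, 1.93, 1.98 and 3.25 in Tyr-NrasQ61K libraries and 2.76, 2.55 and 2.98 in WT libraries. Psmb9/Psmb6 was 0.733, 0.943 and 0.616 in MHCII-KO libraries, 0.661, 1.19 and 0.563 in Tyr-NrasQ61K libraries and 0.775, 0.704 and 0.822 in WT libraries. Both ratios overlapped between the groups. Psmb10/Psmb7 was 1.68, 2.7 and 1.91 in MHCII-KO libraries, 1.51, 4.82 and 1.52 in Tyr-NrasQ61K libraries and 1.39, 1.33 and 1.32 in WT libraries. All 6 NrasQ61K libraries were above all 3 WT libraries, beside 22.3% of gene pairs whose ratios did not overlap. The excess was largest in replicate 2 of both NrasQ61K groups. The mean log2 ratio was 1.10 in NrasQ61K and 0.43 in WT libraries, a difference of 0.67 (exact two-sided permutation test, p = 0.0238, the smallest that 6 against 3 libraries allow, adjusted p = 0.286 over 12 tests). Without replicate 2 of both NrasQ61K groups the difference was 0.29. The other 11 tests had adjusted p values from 0.4 to 1.0. With exact tests of this design no adjusted p under 0.0952 could be reached, and 3 libraries against 3 cannot go below an exact p = 0.1.

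**Figure D3:**
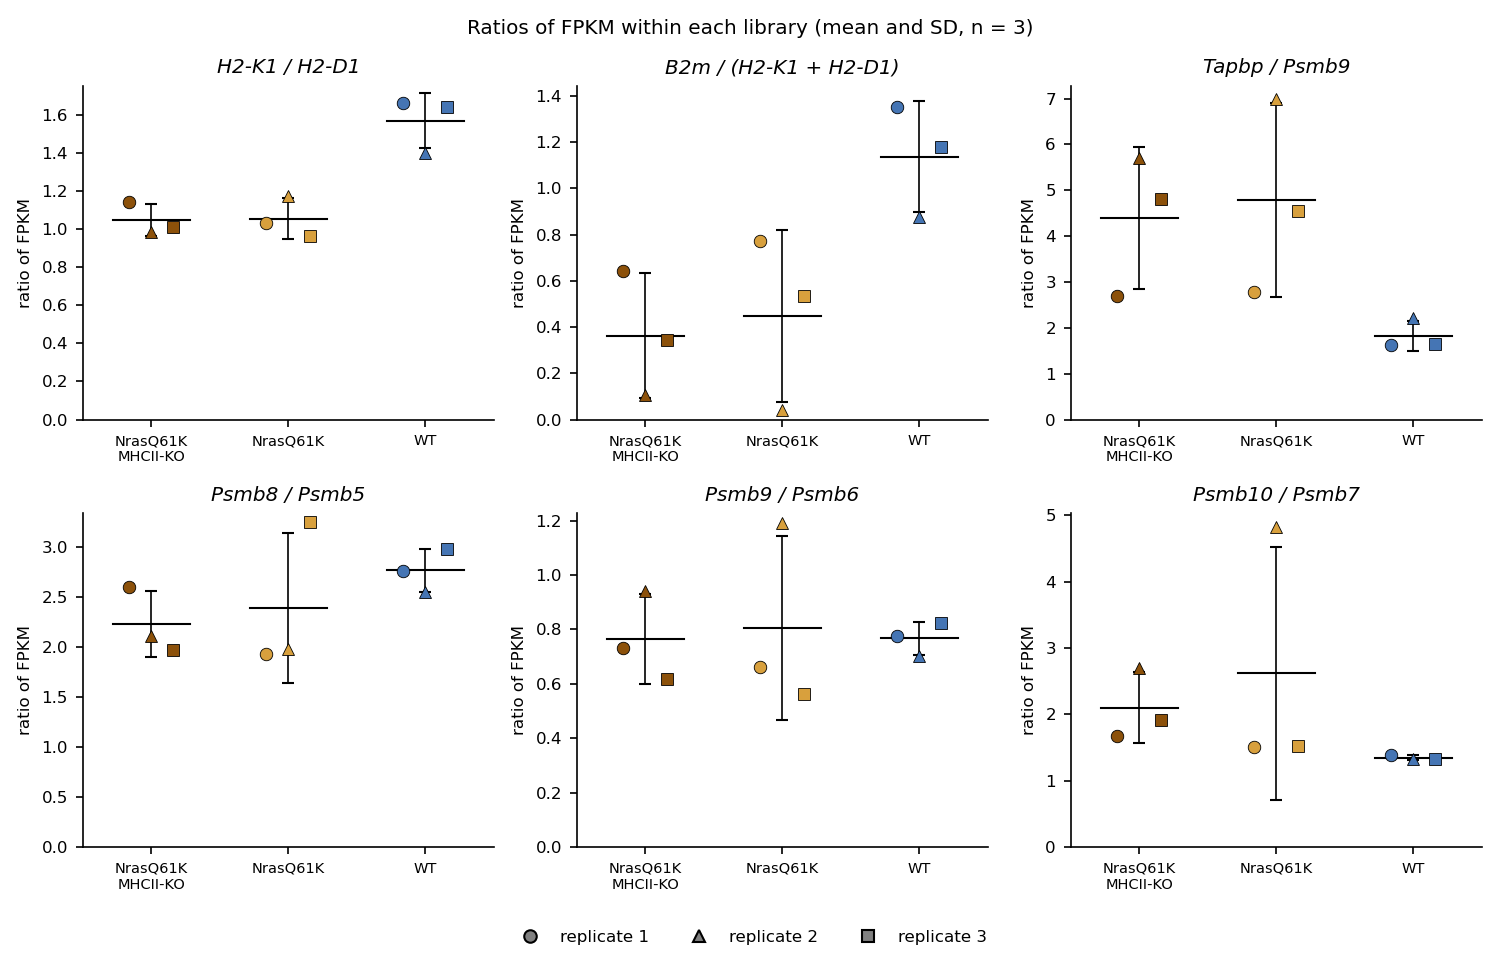
Ratios of FPKM within each library (y axes from 0) by group, with the mean and SD of 3 libraries; circles, triangles and squares are replicates 1, 2 and 3. H2-K1/H2-D1 lay between 0.961 and 1.17 in the NrasQ61K libraries and between 1.4 and 1.66 in WT, and the triangles of both NrasQ61K groups were the extreme points of B2m/(H2-K1 + H2-D1), Tapbp/Psmb9 and Psmb10/Psmb7.

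Psmb7, the denominator of the last ratio, had the lower level in NrasQ61K libraries, with 16.7, 12.4 and 16.4 FPKM in MHCII-KO, 16.8, 8.88 and 21.5 FPKM in Tyr-NrasQ61K and 32.5, 21.2 and 37.0 FPKM in WT libraries. Only 1 NrasQ61K library reached the lowest WT value. Its difference was -0.94 (SE 0.30, unadjusted p = 0.0139 by limma, adjusted p = 0.194), while those of Psmb6 and Psmb5 were -0.53 and -0.25. All 12 other 20S subunits and assembly factors had values below 0 for both NrasQ61K groups against WT, with a median of -0.82 against -0.16 for all genes. None was called, and 9 of the 12 had an unadjusted p under 0.05, beside 21.7% of all genes. Replicate 2 was the lowest library of its group for 11 of the 12 in MHCII-KO, for 12 in Tyr-NrasQ61K and for 12 in WT. Without replicate 2 of both NrasQ61K groups, an alternative added for this list after the data had been seen, all 12 still had values below 0. The median was then -0.56 against -0.07 for all genes, and 3 of the 12 had an unadjusted p under 0.05, beside 15.3% of all genes. In the fit with all 9 libraries Psma2, Psmb1 and Psma3, structural subunits of the rings, had the smallest p, with differences of -1.06, -1.02 and -0.92 (adjusted p = 0.203, 0.204 and 0.208).

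Nlrc5 encodes a class I transactivator of the NLR family and lies at chr8:94434356-94527272 (plus strand). It had 20.7, 20.3 and 19.6 FPKM in MHCII-KO libraries, 16.5, 24.6 and 20.8 FPKM in Tyr-NrasQ61K libraries and 28.9, 24.4 and 26.2 FPKM in WT libraries. The 3 MHCII-KO libraries were close together and below the WT libraries, while Tyr-NrasQ61K replicate 2 reached into the WT range. The difference of both NrasQ61K groups from WT was -0.37 (SE 0.18, 95% interval -0.78 to 0.05, adjusted p = 0.261), the smallest SE of the members.

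The comparisons of each NrasQ61K group with WT share the WT libraries, so their values are given side by side. In MHCII-KO against WT the libraries did not overlap for 4 members. H2-D1 and Tap2 were higher, beside 7.97% of all genes tested, and B2m and Nlrc5 were lower, beside 23.4% of all genes. In Tyr-NrasQ61K against WT only B2m among the members did not overlap, on the lower side (10.5% of all genes, and 8.18% on the higher side). For both NrasQ61K groups against WT it was again B2m alone (8.44% lower and 4.52% higher over all genes). The log2 differences of B2m were -1.89 (adjusted p = 0.350) for MHCII-KO and -2.04 (adjusted p = 0.343) for Tyr-NrasQ61K against WT.

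MHCII-KO against Tyr-NrasQ61K is the comparison within 1 strain label. Here all 10 members overlapped (0.729% of all genes did not overlap on the higher and 3.07% on the lower side), and log2 differences ran from -0.36 (Tap2) to 0.15 (B2m), with adjusted p = 0.9999 by limma for every member. The intervals differed widely in what they allow. That of Nlrc5 was -0.49 to 0.46 and that of Psmb9 -0.70 to 0.64, while that of B2m was -2.11 to 2.41 and that of Tap2 -1.56 to 0.85. The sign of the difference turned under at least 1 alternative for all 10 members. In both groups replicate 2 was the highest library for H2-K1, H2-D1, Tap2, Tapbp and Psmb10 and the lowest for B2m.

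**Figure D4:**
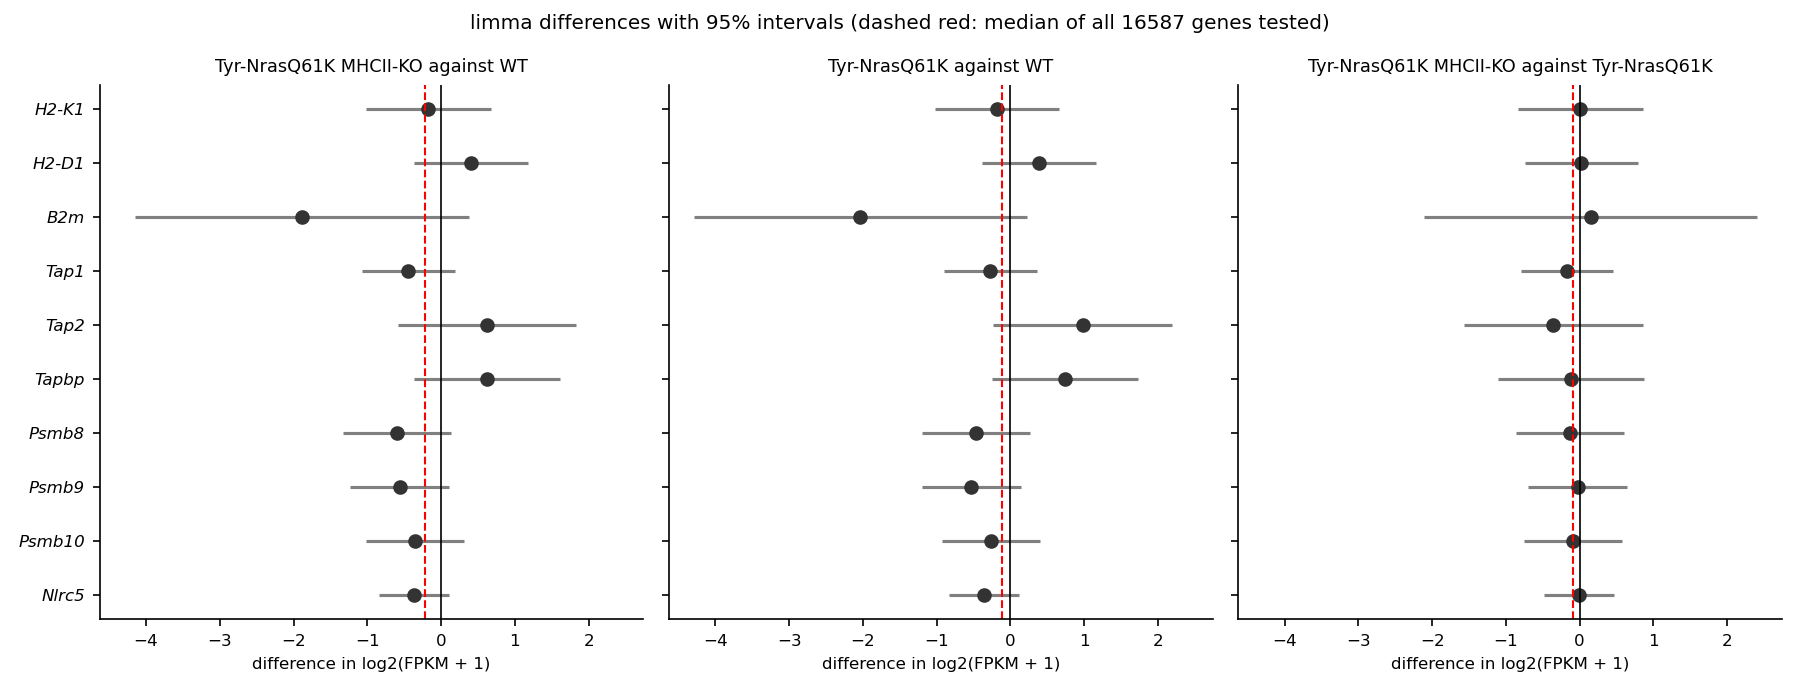
Differences in log2(FPKM + 1) of the 10 genes with 95% intervals from limma, for MHCII-KO against WT, Tyr-NrasQ61K against WT and MHCII-KO against Tyr-NrasQ61K; the dashed line is the median of all 16587 genes tested. Every interval crosses 0, and that of B2m is the widest in each comparison.

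Of the other genes of the pathway, none was called by limma in any of the 4 comparisons. At an unadjusted p under 0.05 for both NrasQ61K groups against WT there were 2 of 16 other heavy chains, 2 of 10 genes of peptide loading and trimming and 0 of 4 proteasome activators, beside 21.7% of all genes. Among 16 other class I heavy chains 9 lay above 0 for both NrasQ61K groups against WT, with a median of 0.08. H2-M2 and Cd1d1, which presents lipids, had the smallest p, with -0.88 (adjusted p = 0.169) and -0.89 (adjusted p = 0.191), followed by H2-T10 with -0.48 (adjusted p = 0.233). H2-M2 had 15.6, 17.5 and 17.2 FPKM in MHCII-KO, 19.9, 14.3 and 26.2 FPKM in Tyr-NrasQ61K and 39.8, 25.2 and 39.6 FPKM in WT libraries. It overlapped only through Tyr-NrasQ61K replicate 3. Of 10 genes of peptide loading and trimming 9 lay below 0, with a median of -0.46, led by the trimming peptidase Erap1 (-0.93, adjusted p = 0.207), the chaperone Calr (-0.70, adjusted p = 0.220) and the peptidase Lnpep (-0.54, adjusted p = 0.288). The 4 proteasome activators lay below 0 as well, Psme1 at -0.68 (adjusted p = 0.247), Psme2 at -0.42 (adjusted p = 0.627) and Psme3 at -0.35 (adjusted p = 0.373). Psme2, part of the interferon-inducible activator, stood out in Tyr-NrasQ61K replicate 3, with 245 FPKM against 46.5 and 50.05 in the other Tyr-NrasQ61K libraries. That library also stood apart on the second principal component.

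Of 17 tested regulators upstream of the class I genes, 5 lay above 0 for both NrasQ61K groups against WT and 4 (beside 21.7% of all genes) had an unadjusted p under 0.05. Irf2, which competes with IRF1 for the same promoter letters, had 13.3, 12.3 and 14.2 FPKM in MHCII-KO libraries, 11.9, 13.4 and 14.3 FPKM in Tyr-NrasQ61K libraries and 7.77, 8.92 and 9.84 FPKM in WT libraries. All 6 NrasQ61K libraries lay above the WT libraries, and the difference was 0.53 (SE 0.15, adjusted p = 0.170). Of the 17 regulators, 1 lay fully above and 1 fully below WT, beside 4.52% and 8.44% of all genes. Irf9, which acts in the response to type I interferon, had a difference of -0.67 (adjusted p = 0.206).

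Of 17 neighbours of the members on chromosome 17, 10 lay above 0 for both NrasQ61K groups against WT, with a median of 0.06 and 1 at an unadjusted p under 0.05, beside 21.7% of all genes. Rps18, a ribosomal protein gene, had -1.22 (adjusted p = 0.216), Aif1, a macrophage gene, -0.69 (adjusted p = 0.271) and Rgl2, a neighbour of Tapbp, 0.56 (adjusted p = 0.277). Rgl2 was highest in replicate 2 of both NrasQ61K groups, with 36.8 and 47.7 FPKM, as Tapbp was.

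Besides the melanocyte markers, the sum of a list of adipocyte, epidermis and muscle markers did not overlap between the NrasQ61K and the WT libraries. The muscle marker Acta1 was absent, and the epidermis markers Krt5 and Krt14 did not pass the filter on low values. Only the 3 adipocyte genes of this list were tested. Summed FPKM of the 5 markers found was 7.06 to 19.3 in MHCII-KO, 5.01 to 17.6 in Tyr-NrasQ61K and 37.1 to 74.4 in WT libraries. Among them Plin1, an adipocyte lipid droplet gene, was called lower for both NrasQ61K groups against WT (-1.95, adjusted p = 0.0445 by limma). The sums of the other cell types overlapped between NrasQ61K and WT libraries. Summed FPKM of 7 dendritic cell markers was 47.6 to 69.3 in MHCII-KO, 43.2 to 80.6 in Tyr-NrasQ61K and 74.9 to 123 in WT libraries. That of 7 markers of endothelium and stroma was 159 to 194 in MHCII-KO, 158 to 204 in Tyr-NrasQ61K and 189 to 395 in WT libraries. That of 5 markers of NK and cytotoxic cells was 8.42 to 12.1 in MHCII-KO, 5.03 to 11.1 in Tyr-NrasQ61K and 14.3 and 22.4 in WT replicates 1 and 3, with WT replicate 2 inside the NrasQ61K range. That of 4 plasma cell markers was 218 to 511 in MHCII-KO, 143 to 397 in Tyr-NrasQ61K and 161 to 499 in WT libraries. Macrophages and B cells had 672 to 1585 FPKM of 8 macrophage markers and 318 to 592 FPKM of 7 B cell markers in the 6 NrasQ61K libraries, against 685 to 1492 and 480.5 to 613 in WT libraries. The part of any of these cells in the levels of the class I genes was not tested.

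The genes whose profile over the 9 libraries was most like the mean profile of the members were Commd4, Sf3b5, Rnf40, Csk and Ptprcap. The measure was the mean absolute difference of z-scored log2(FPKM + 1), which was 0.287, 0.294, 0.299, 0.319 and 0.321, among 5788 candidates with a mean FPKM of at least 10. The mean z-score of the members was highest in WT replicates 1 and 3 (0.824 and 0.797) and lowest in Tyr-NrasQ61K replicate 1 (-0.921) and WT replicate 2 (-0.693). Csk, a kinase, had 30.6, 31.6 and 32.3 FPKM in MHCII-KO, 28.2, 37.1 and 34.2 FPKM in Tyr-NrasQ61K and 42.03, 30.5 and 40.1 FPKM in WT libraries.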

How the data were processed

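RNA from 9 libraries in 3 groups was sequenced by the authors on an Illumina Genome Analyzer IIx, all libraries on 1 flow cell. The FPKM values deposited by the authors are Cufflinks estimates per gene and library; the submitters' processing notes name TopHat, Cufflinks and Cuffdiff with mm10, and their versions are not stated. Of 37819 entries, 18 with several values per library were left out. Depth was only estimated, as a ratio to WT replicate 1.

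The 16587 genes that reached 1 FPKM in 3 or more libraries were fitted on the log2(FPKM + 1) scale (limma 3.58.1, R 4.3.3; group means, mean-variance trend, no block), and those with an adjusted p (Benjamini-Hochberg) of 0.05 or less were called. A pseudocount of 1 understates changes of low genes. Ratios were compared by exact permutation tests (scipy 1.17.1). Replicate numbers in the titles name libraries, and whether they mark a shared batch was not tested. The fit was tested on simulated data, in which each gene had the same spread in every library. That test does not cover libraries that stand apart. The members and lists were chosen with earlier results of these data known. Named genes were all members, up to 3 genes per pathway list with the smallest unadjusted p, the 5 genes most alike in profile and 3 class II genes. A gene that this rule also named is not reported here. Ratios of 2 members were added after their values were seen, as were the rest of the genes outside this rule. Coordinates and GC content came from GENCODE M21 (Psmb9 matched by symbol), and promoters from RefSeq. Alternatives were another pseudocount, 2 filters, no trend, 3 scalings, library weights, the replicate block, leaving out libraries, fitting only the groups compared, and a GC and length correction.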

Additional observations from a re-analysis of the deposited data

Results flagged for a closer look

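Psmb8 was set apart by its highest NrasQ61K library. Over the 6 NrasQ61K libraries, Tyr-NrasQ61K replicate 3 had 67.9 FPKM against 44.04 to 51.5 FPKM in the others, and the gap to the nearest was 0.689 of the whole range. Tyr-NrasQ61K replicate 3 also stood apart on the second principal component of all tested genes. About 1 in 20 groups would be picked out by chance, and 10 genes were examined.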

How the results depend on the processing

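The count of members called was 0 in all 4 comparisons, and it stayed at 0 under every alternative except 2. With library weights it was 7 for both NrasQ61K groups against WT, 6 for MHCII-KO against WT and 6 for Tyr-NrasQ61K against WT, while between 5076 and 7542 of all genes were called. With the replicate block it was 1 for both NrasQ61K groups against WT (B2m, adjusted p = 0.0386), with 2675 of all genes called. Deviations of libraries with the same replicate number correlated at -0.038 to 0.332, and those of libraries with different numbers at -0.27 to 0.162. Whether a replicate number marks a shared batch was not tested. Over all alternatives the calls among all genes ran from 26 to 7542 for both NrasQ61K groups against WT (66 as reported), from 5 to 7407 for MHCII-KO against WT (24), from 11 to 5076 for Tyr-NrasQ61K against WT (39) and from 0 to 24 for MHCII-KO against Tyr-NrasQ61K (8). Of the calls for both NrasQ61K groups against WT, 34 of 66 were on the higher side, and 71 of 173 under quantile normalization. For Tyr-NrasQ61K against WT these were 27 of 39 and 26 of 47.

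Of 830 log2 differences of members under alternatives, 59 had the other sign, 46 of them in MHCII-KO against Tyr-NrasQ61K. For both NrasQ61K groups against WT, H2-K1 turned to 0.16 under quantile normalization, 0.068 under median-ratio scaling and 0.0023 under upper-quartile scaling. For MHCII-KO against WT, H2-K1 turned to 0.13, 0.12 and 0.10 under these scalings and to 0.035 under the GC and length correction. For Tyr-NrasQ61K against WT, H2-K1 turned to 0.19 and 0.015 under the first 2 scalings, and with library weights H2-D1 turned to -0.029, Tap2 to -0.12 and Tapbp to -0.033. For MHCII-KO against Tyr-NrasQ61K, quantile normalization gave H2-K1 -0.053, H2-D1 -0.038, Psmb8 0.028, Psmb9 0.13, Psmb10 0.067 and Nlrc5 0.15. Median-ratio scaling gave Psmb9 0.062, Psmb10 0.0019 and Nlrc5 0.078, and upper-quartile scaling gave Tap1 0.0049, Tapbp 0.058, Psmb8 0.046, Psmb9 0.14, Psmb10 0.082 and Nlrc5 0.16. The GC and length correction gave Psmb9 0.062, Psmb10 0.069 and Nlrc5 0.11, and library weights gave B2m -0.62, Tap2 0.59, Tapbp 0.51, Psmb8 0.078, Psmb10 0.22 and Nlrc5 0.21. Leaving out replicate 2 of both groups gave B2m -0.36, Tapbp 0.033, Psmb9 0.019, Psmb10 0.040, Nlrc5 0.11, Psmb9/Psmb6 0.14 and Psmb10/Psmb7 0.24. Leaving out each library in turn gave, for MHCII-KO against Tyr-NrasQ61K, H2-K1 -0.18 to 0.21, H2-D1 -0.15 to 0.15, B2m -0.99 to 0.78, Tap2 -0.997 to 0.0063, Tapbp -0.48 to 0.25, Psmb8 -0.25 to 0.054, Psmb9 -0.088 to 0.030, Psmb10 -0.27 to 0.094 and Nlrc5 -0.16 to 0.12. The ratios were then -0.20 to 0.18 for Psmb8/Psmb5, -0.24 to 0.30 for Psmb9/Psmb6 and -0.40 to 0.44 for Psmb10/Psmb7. For Tyr-NrasQ61K against WT, H2-K1 was -0.41 to 0.0058 and Psmb9/Psmb6 -0.33 to 0.21, and Psmb9/Psmb6 was -0.19 to 0.12 for MHCII-KO against WT and -0.15 to 0.070 for both NrasQ61K groups. The cause of these turns was not tested. With 3 libraries a group and unknown read numbers, a difference that was not called was not shown to be absent. The intervals give the sizes that the data allow.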
